A study of Mus musculus with 15 samples.

Results

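Definitive endoderm and early gut cells of late mouse embryos were chosen by their own transcripts. A retained cell of the 5 late libraries was taken when it held at least 1 unique molecular identifier (UMI, the tag of a single captured transcript) of Sox17, at least 1 UMI of at least 2 of Foxa2, Trh, Cer1, Gpx2, Hhex and Pyy, and 0 UMIs of Noto, a notochord gene. This gave 3056 endoderm cells of 70196 retained late cells. All 15 libraries of the series held 93701 retained cells. The 8 genes of this rule are therefore described and not tested.

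Whole embryos were dissociated and sequenced as single cells in droplets, with libraries read at the 5′ end of each transcript. The late Mesp1 KO library came from late E7.5 (embryonic day 7.5) and carried the genotype Mesp1 Cre/Cre, a Cre knock-in, with its PGK-Neo cassette, at both copies of Mesp1. The controls were 2 libraries at late E7.5 and 2 at E7.75, and kept at least 1 wild-type Mesp1 allele (Mesp1 Cre/+ or Mesp1 +/+). All 5 were on a C57BL/6J background and carried the Smarcd3-F6::eGFP enhancer transgene at Hipp11. They also carried the Cre-dependent Ai14 reporter at Rosa26, except late E7.5 control replicate 1, and yolk was taken off where embryos had it. Mesp1 is expressed in nascent mesoderm, so Ai14 marks its lineage. There was 1 KO library, in experiment 5, and E7.75 control replicate 1 was the only late control of that experiment. This control was labelled with a later stage than the KO, so genotype and stage cannot be told apart within experiment 5. Late E7.5 control replicates 1 and 2 came from experiments 7 and 4, and E7.75 control replicate 2 from experiment 7. At late E7.5 genotype therefore cannot be told apart from experiment, or from the lower depth of the KO given below. Stages were assigned by the scheme of Downs and Davies, at the experimenter's discretion, per the paper.

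Definitive endoderm leaves the primitive streak under Nodal signalling, inserts into the outer layer of the embryo and becomes the gut tube. Its earliest cells go anterior and express Otx2, Hesx1, Lhx1 and secreted Wnt and BMP antagonists, while later cells are regionalised posteriorly by Wnt, FGF and Cdx factors. It mixes with visceral endoderm, an older layer that transports nutrients and makes apolipoproteins and transthyretin (Ttr). Sox17 and Foxa2 are transcription factors of the lineage, and Cer1 encodes a secreted Nodal and BMP antagonist. Trh encodes a peptide hormone precursor, Gpx2 a glutathione peroxidase, Hhex a homeobox factor of anterior endoderm and Pyy a gut peptide.

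The endoderm numbered 700 cells in the KO, 394 and 918 in late E7.5 control replicates 1 and 2, and 114 and 930 in E7.75 control replicates 1 and 2. Both libraries of experiment 5 were shallow. The median endoderm cell held 3969 UMIs in the KO and 5174.5 in E7.75 control replicate 1, against 22777.5 to 25539 in the other 3. Library totals were between 51599340 and 379177866 UMIs. Endoderm cells scored as possible doublets numbered 126 of 700 in the KO, where 10.3% of all retained cells were so scored. In late E7.5 control replicates 1 and 2 they made up 10.4% and 30.5% of endoderm cells, against 5.67% and 18.5% of retained cells. In E7.75 control replicates 1 and 2 the shares were 21.9% and 18.8%, against 11.9% and 11.4%. The share was thus higher among endoderm cells than among all retained cells in every library. The scored cells were kept. Any pair of the 5 libraries shared 116 to 451 cell barcodes, of which 0 or 1 were endoderm cells in both. Mesp1 itself had 5 UMIs over all retained KO cells and between 282 and 8087 per control.

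Levels are given as CPM (UMI counts scaled to a common library total) of the summed endoderm cells of a library after TMM scaling, and library values are listed in the order KO, late E7.5 control replicates 1 and 2, E7.75 control replicates 1 and 2. Sox17 (GRCm38, chr1:4490931-4497354, minus strand) had 544, 260, 209, 332 and 228 CPM. The rule genes split the libraries unevenly. Cer1 stood at 708 CPM in the KO, at 290 in late E7.5 control replicate 1 and at 5.45, 7.68 and 34.6 in the others, and 76.4% of KO endoderm cells held a Cer1 UMI against 71.1%, 7.63%, 3.51% and 31.9% of control ones. Gpx2 ran the other way, with 95.2 CPM in the KO and 204, 179, 513 and 216 in controls. Pyy ranged from 0.682 to 484 CPM over the controls alone, with the KO at 17.9.

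The label was set beside genes outside the rule. The 20 genes most enriched in endoderm over the other cells of every library, a ranking by the same cells and so a description only, included the epithelial genes Cldn6, Crb3, Epcam, Spint2 and Rab25, and Kitl, Spink1, Slc16a1 and Emb. Cldn6, a tight junction claudin, had 237, 312, 256, 198 and 262 CPM in endoderm and 41.9 to 80.0 CPM in other cells. Epcam, an epithelial adhesion molecule, had 335, 590, 319, 336 and 505 CPM. Of 19 endoderm identity genes outside the rule, 16 in the KO and 19, 18, 15 and 19 in the controls (late E7.5 replicates 1 and 2, E7.75 replicates 1 and 2) were higher in endoderm than in the other cells of the library. The 3 exceptions in the KO were Krt19 (27.9 CPM in endoderm, 40.2 in other cells), Sox7 (0.458 and 3.93) and Hnf4a (5.49 and 10.2), of which Krt19 was higher in endoderm in every control. Krt18 had 1168 to 2074 CPM in endoderm and 376 to 747 in other cells. Node and notochord genes summed to 64.1 CPM in the KO and 56.2 to 97.9 in controls.

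Cells near the edge of the rule were compared without a test. With Sox17 and exactly 2 of the 6 partner genes there were 412 KO cells, with exactly 1 there were 353. Transthyretin stood at 1083 CPM in the former and 4957 in the latter. In the controls, in the order late E7.5 replicates 1 and 2 and E7.75 replicates 1 and 2, it stood at 5331, 2297, 499 and 3294 CPM with exactly 2 and at 6269, 3836, 1503 and 3939 with exactly 1. In control cells with exactly 1 partner gene Kdr, an endothelial receptor, stood at 40.8 to 123 CPM against 25.3 to 79.7 with exactly 2. Cldn6 had 244 CPM in KO cells with exactly 1 partner gene and 230 with exactly 2. In controls it had 171 to 291 and 201 to 328 CPM. Krt18 had 1522 and 1591 CPM in the KO, and 360.5 to 864 against 752 to 1290 in controls. Cldn6, and Krt18 in the KO, thus did little to separate cells inside the rule from those just outside. A further 939 KO cells held 2 or more partner genes and no Sox17 UMI, as did 226, 799, 416 and 553 control cells, with Lhx1 at 220 CPM in the KO and 5.15 to 19.1 in controls. All other KO cells together held 225 CPM of Trh, against 19.3 to 64.4 in those of controls.

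As a share of retained cells, endoderm was 5.45% in the KO (95% interval 5.06 to 5.85) and 5.82%, 4.12%, 0.766% and 6.93% in the controls. The KO value lay among the controls, 1.04 percentage points above their mean. A cell passes the rule more readily where the rule genes are higher, so these shares rest on values the rule used and are given without a test. After every cell was thinned to 2000 UMIs the KO held 2.79% and the controls 1.56%, 0.566%, 0.260% and 1.22%. The KO value was above all 4 controls (difference 1.89 points), with Sox17, Cer1 and Trh also higher per UMI in KO endoderm (Trh at 1874 CPM against 283 to 1653). Those levels come from cells chosen for holding these genes, and a required UMI weighs more in a shallow cell. Foxa2 had 108 and 99.8 CPM in the shallow KO and E7.75 control replicate 1, and 45.2 to 57.4 elsewhere. Gpx2 was lowest in the KO, at 95.2 CPM. The part of depth in rule gene levels was not tested. Without Cer1 among the partner genes, an alternative chosen after seeing the data, the thinned shares were 1.26%, 1.05%, 0.566%, 0.260% and 1.17%. The KO was above the control mean by 0.497 points, and its interval of 1.06 to 1.49% overlapped those of late E7.5 control replicate 1 and E7.75 control replicate 2. Without E7.75 control replicate 1 the difference as deposited was -0.179 points. Thinning left out 2126 KO cells and 293, 3563, 2555 and 752 control cells that held under 2000 UMIs. Intervals cover counting error only.

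**Figure D1:**
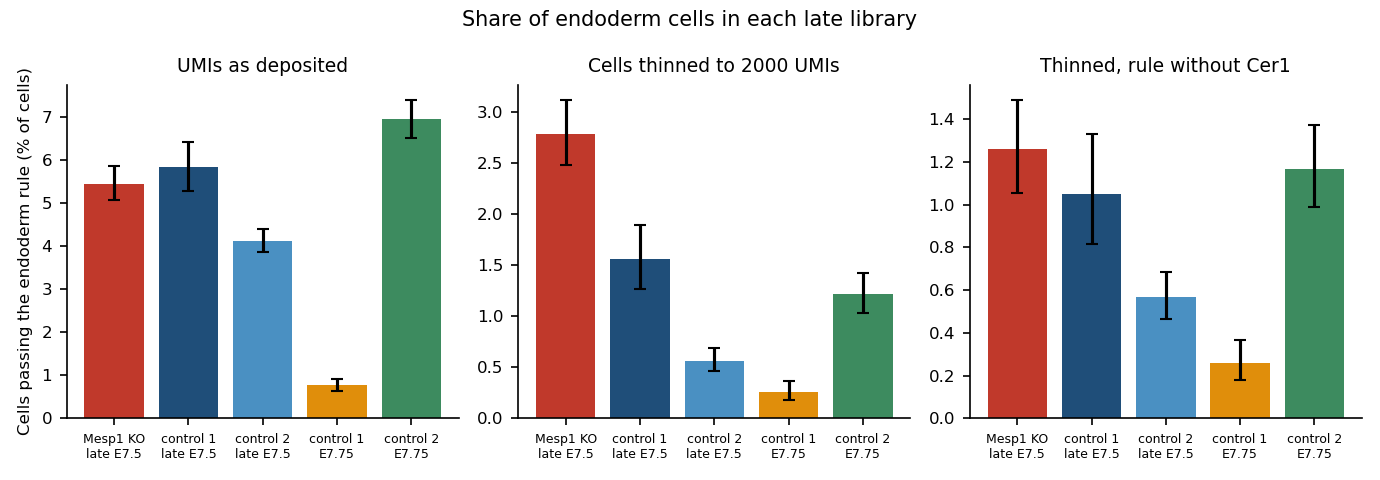
Share of retained cells that passed the endoderm rule in each late library (y axes, percent of cells, each from 0 with its own scale), as deposited, thinned to 2000 UMIs per cell and thinned with Cer1 left out of the rule. Bars are libraries and whiskers exact 95% intervals. The KO bar at 5.45% lies among the controls on the left and at 2.79% above all 4 in the middle.

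Most anterior and mesendoderm genes tested lay above all 4 controls in KO endoderm and most posterior ones below, and 0 of them passed the edgeR threshold. Part of the KO cells passed the rule only through Cer1, a rule gene high in the KO, and Hhex of anterior endoderm is also in the rule. The list counts are therefore a description of the cells so chosen. Lhx1, a LIM homeobox factor of anterior endoderm and axial mesendoderm, stood at 248 CPM against 4.17 to 8.57 in controls. Cdx2, a posterior homeobox factor, stood at 8.70 CPM against 50.7 to 211. Over all 13900 genes tested with edgeR's quasi-likelihood test on library sums, 0 passed an adjusted p of 0.05 (0.0%), 1467 had an unadjusted p under 0.05 (10.6%), and DESeq2 called 47 (0.338%), 32 of them higher in the KO (0.23%). With 1 KO library, assumed to vary like the controls, the KO value lay above all 4 controls for 24.3% of tested genes and below all 4 for 22.3%, and group counts are read against these shares. The median log2 difference of all tested genes was -0.08, and -0.59 when library totals replaced TMM, so differences hold relative to that shift. Without E7.75 control replicate 1, which has the fewest endoderm UMIs, edgeR called 407 genes, 366 of them higher in the KO, and without late E7.5 control replicate 1 it called 2. With experiment as a term, so that the KO is set against E7.75 control replicate 1, edgeR called 0 genes, with 1386 at an unadjusted p under 0.05.

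Of the 11 anterior endoderm genes tested, 8 were above all 4 controls and 0 below, with a median log2 difference of 1.31. Lhx1 (chr11:84518284-84525535, minus strand, protein coding) had 248, 8.57, 4.17, 7.68 and 4.55 CPM, so that the KO value lay far above the control range. The log2 difference was 5.42 ± 0.38 (SE), with an adjusted p of 0.072 by edgeR and 1.25e-16 by DESeq2. Across the edgeR alternatives and DESeq2 it lay between 4.799 and 5.77, the adjusted p ran up to 0.614, and 7 of 15 alternatives with a test passed the threshold. With Cer1 left out of the rule, 422 of 700 KO cells still passed. So did 367 of 394, 902 of 918, 111 of 114 and 904 of 930 control cells. In these cells Lhx1 differed by 5.27 (adjusted p = 0.11) and Cdx2 by -3.84 (adjusted p = 0.48, both edgeR). The counts over gene lists, here and below, were not repeated without Cer1. Lhx1 was seen in 293 of 700 KO cells and in 66 of 394, 70 of 918, 3 of 114 and 78 of 930 control cells, despite the lower depth of the KO. Thinned to 2000 UMIs per cell, 299 KO cells and 101, 106, 32 and 154 control cells still passed the rule. Of these, 25.1% in the KO and 2.97%, 1.89%, 0% and 1.30% in the controls held an Lhx1 UMI, and 0 of 32 cells allows a share of up to 9.38%.

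Gsc, a homeobox factor of the organizer, had 46.7 CPM in the KO and 0.877, 2.07, 0 and 4.59 in controls. The 0 in E7.75 control replicate 1 allows up to 5.76 CPM, the value of 3 UMIs in its 114 cells. The log2 difference of Gsc was 4.23 ± 0.72 (SE), with an adjusted p of 0.338 by edgeR and 0.00528 by DESeq2. In the other cells Gsc had 21.8 CPM in the KO and 1.47 to 3.26 in controls. Its KO difference was not shown to differ between endoderm and other cells (edgeR adjusted p = 0.542).

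Otx2 (chr14:48657677-48673819), the head organizer and forebrain factor, had 132 CPM in the KO and 37.5, 15.4, 1.92 and 34.1 in controls. Thinned to 2000 UMIs, 19.4% of KO cells and 0% to 10.9% of control cells held it. Its log2 difference was 2.41 ± 0.72 (SE, adjusted p = 0.412, edgeR). In the other cells Otx2 had 57.8 CPM in the KO and 17.0 to 32.6 in controls. Its KO difference was not shown to differ between endoderm and other cells (edgeR adjusted p = 0.381). Hesx1, another anterior homeobox factor, had 66.4, 58.3, 10.9, 1.92 and 25.5 CPM, the KO being barely above late E7.5 control replicate 1.

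The secreted antagonists of the anterior list were less uniform. Frzb (chr2:80411970-80447625), a Wnt antagonist, had 102, 47.4, 31.3, 21.1 and 38.1 CPM, with the KO above every control (log2 difference 1.52 ± 0.35 SE, edgeR adjusted p = 0.376). Dkk1 had 132 CPM in the KO and 146 in late E7.5 control replicate 1, with 44.2 to 62.4 in the other controls. Sfrp1 behaved alike, with 76.5 CPM in the KO, 90.2 in late E7.5 control replicate 1 and 5.71 to 25.8 in the others. Shisa2, an inhibitor of Wnt and FGF receptor maturation, had 48.5 and 47.5 CPM in these libraries and 5.01 to 27.2 elsewhere. The Cer1-rich late E7.5 control replicate 1 therefore came close to the KO for Hesx1, Dkk1, Sfrp1 and Shisa2, but not for Lhx1 and Gsc.

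Genes of Nodal signalling and of mesendoderm were higher in the KO in most cases. Of 17 tested, 12 were above all 4 controls and 0 below, with a median log2 difference of 2.53. Lhx1 and Gsc are also in the anterior list and Fgf8 in the posterior list. In the other KO cells Tdgf1 and Eomes stood at 152 and 71.1 CPM, and at 0.646 to 3.76 and 0.547 to 8.12 CPM in those of controls. In endoderm Tdgf1, the Nodal coreceptor Cripto, had 122 CPM in the KO, 5.65 in late E7.5 control replicate 1, 0.0403 in E7.75 control replicate 2 and 0 in the remaining controls. Eomes, a T-box factor of mesendoderm, had 70.04, 12.2, 1.80, 1.92 and 4.63 CPM. Fgf5, an epiblast FGF, had 67.3, 7.40, 0.747, 0 and 1.89 CPM, with 28.4 CPM in the other KO cells and 0.957 to 4.33 in those of controls. In endoderm, for Tdgf1, Eomes and Fgf5 the KO was the highest library and late E7.5 control replicate 1 the second. Nodal, the ligand, had 21.97 CPM against 0.725 to 7.499, and Mixl1, a streak homeobox factor, 12.4 against 0 to 2.05. Mixl1 was lower in endoderm than in the other cells in the KO (-1.89 in log2 of CPM plus 1) and in the control mean (-1.96). For Nodal the same differences were 0.677 in the KO and -0.732 in the control mean. Not every member stood apart, since T (Brachyury) had 33.0 CPM in the KO and 32.6 to 57.6 in controls, and the transducer Smad2 26.1 against 25.0 to 35.4. None passed the edgeR threshold. DESeq2 called 4 of the list, with adjusted p of 1.25e-16 for Lhx1, 0.00528 for Gsc, 0.0346 for Fgf5 and 0.0494 for Eomes.

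**Figure D2:**
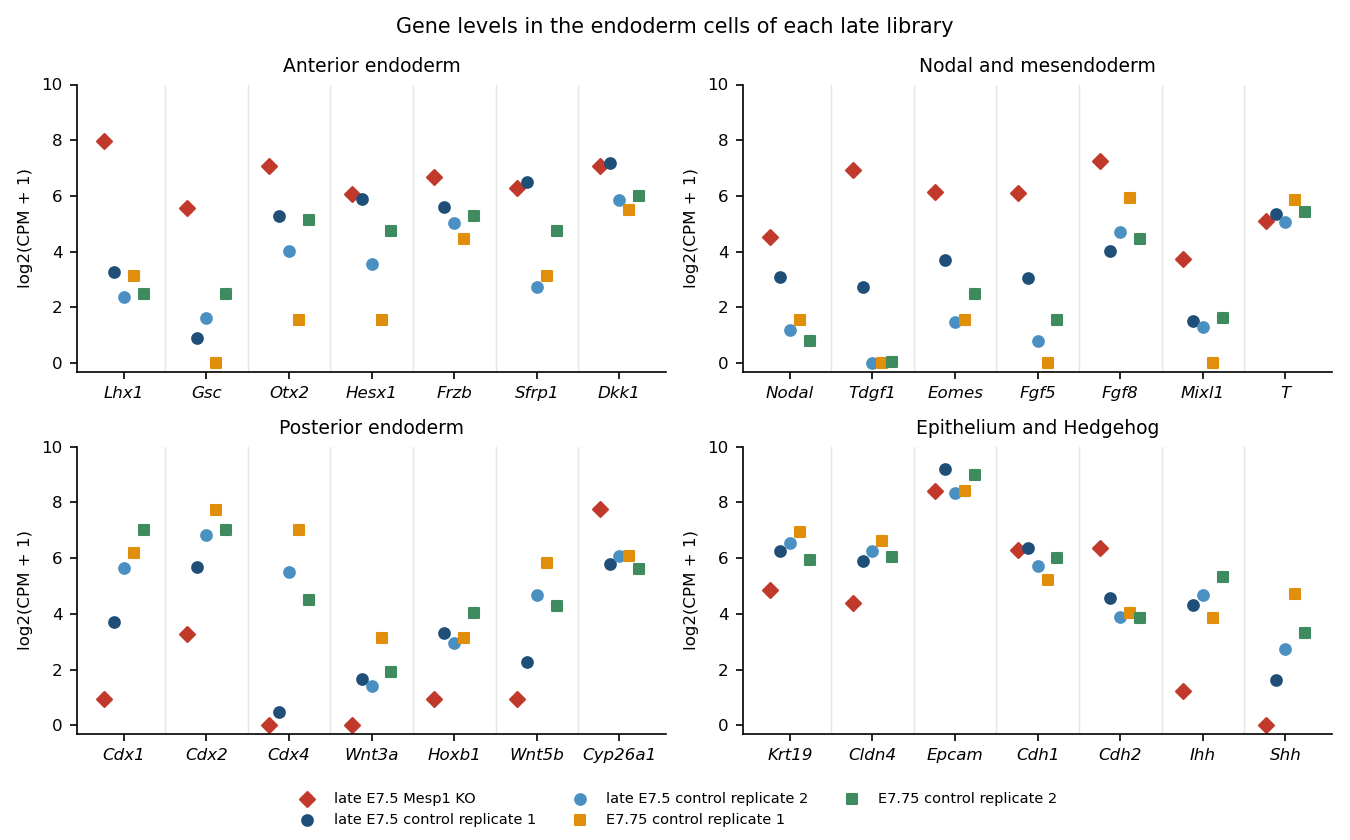
Levels of 28 genes in the summed endoderm cells of each late library (y axis, log2 of CPM plus 1), grouped as anterior, Nodal and mesendoderm, posterior, and epithelial or Hedgehog genes. Each point is a library. The red KO points stand above all controls for Lhx1 (248 CPM) and Tdgf1 (122 CPM) and below all for Cdx2 (8.70 CPM) and Ihh (1.37 CPM).

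Of 12 posterior endoderm genes tested, 8 were below all 4 controls and 2 above, with a median log2 difference of -3.62. Their summed level was 407 CPM in the KO, inside the control range of 178 to 660, with Fgf8 at 151 and Cyp26a1 at 216 CPM in the KO. Cdx2 (chr5:147300805-147307270, minus strand) had 8.70, 50.7, 113, 211 and 127 CPM, with a log2 difference of -3.81 ± 0.92 (SE, adjusted p = 0.376 by edgeR and 0.00154 by DESeq2). It was present in 2.43% of KO endoderm cells and in 38.6%, 53.3%, 44.7% and 50.2% of control ones. At 2000 UMIs these shares were 1.003%, 4.95%, 20.8%, 37.5% and 31.2%. Cdx1 had 0.916 CPM from 2 UMIs in the KO and 12.2, 48.6, 71.0 and 127 CPM in controls. Both Cdx genes were also low in the other KO cells, with Cdx1 at 3.06 CPM against 74.9 to 239 and Cdx2 at 34.4 against 98.8 to 171. The KO difference was not shown to differ between endoderm and other cells (edgeR adjusted p = 0.985 for Cdx1 and 0.757 for Cdx2).

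Hoxb1 and the Wnt ligand Wnt5b were also low in the KO. Hoxb1 had 0.916 CPM against 6.77 to 15.3 and Wnt5b 0.916 against 3.80 to 55.7. Each of these KO values rests on 2 UMIs, and 0 UMIs were found of Cdx4 and Wnt3a, which allows 1.37 CPM. Cdx4 stood at 0.390 CPM in late E7.5 control replicate 1 and 21.8 to 127 in the other controls. It is among the 8 genes counted below all controls, although 0.390 CPM lies under the KO limit of 1.37 CPM. Among the controls, Cdx1, Cdx2, Cdx4 and Wnt5b were lowest in late E7.5 control replicate 1. The 2 genes above all controls were Fgf8, a streak FGF, with 151 CPM against 15.1 to 59.5, and Cyp26a1, an enzyme that degrades retinoic acid, with 216 CPM against 47.9 to 67.2. Cyp26a1 had a log2 difference of 1.90 ± 0.26 (SE, adjusted p = 0.321 by edgeR and 0.00211 by DESeq2). In the other cells Cyp26a1 stood at 76.2 CPM in the KO and 21.1 to 36.0 in controls, and Fgf8 at 75.7 against 29.1 to 56.7. The KO difference of Cyp26a1 and Fgf8 was not shown to differ between endoderm and other cells (edgeR adjusted p = 0.901 and 0.470).

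Single cells of the KO rarely held a Cdx gene. Cdx1 or Cdx2 was found in 19 of 700 KO endoderm cells and in 160 of 394, 541 of 918, 59 of 114 and 524 of 930 control cells. Otx2 together with a Cdx gene was found in 7 KO cells and in 26, 24, 0 and 37 control cells. These counts grow with depth, which is lowest in experiment 5.

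The same rule was applied to the 10 earlier libraries, where it also takes anterior visceral endoderm, so these values are a description of rule-passing cells and not of definitive endoderm alone. The KO libraries of E6.5 and E7.0 are from experiment 8 and the controls of E6.5 to early E7.5 from experiment 7, so genotype and experiment cannot be told apart at those stages. In control cells Lhx1 stood at 153 CPM at E6.5, 237 at late E6.5, 47.3 at E7.0 and 5.79 at early E7.5. In KO cells it stood at 302 CPM at E6.5, 306 at E7.0 and 248 at late E7.5. The younger controls of experiment 8, E6.0 replicate 3 and late E6.0, had 478 and 289 CPM of Lhx1 and 6.18 and 5.58 of Cdx2. Cdx2 in control cells was 20.6 CPM at E6.5, 5.87 at late E6.5, 23.9 at E7.0 and 90.7 at early E7.5, and in KO cells 6.02, 3.35 and 8.70 CPM at E6.5, E7.0 and late E7.5. Fgf5 in controls was 109.7 CPM at E6.5, 171 at late E6.5, 49.1 at E7.0 and 2.19 at early E7.5. In KO cells Fgf5 was 188, 196 and 67.3 CPM at E6.5, E7.0 and late E7.5. Cells with at least 0.5% of UMIs from 9 visceral endoderm genes made up 24.9% to 38.4% of the rule-passing cells in these 4 controls. Their share in the KO libraries was 23.15% at E6.5, 15.6% at E7.0 and 6.43% at late E7.5.

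Krt19, a simple epithelial keratin, had 18.6, 20.2 and 27.9 CPM in the KO libraries, 46.5 to 60.02 in controls from E6.5 to early E7.5 and 26.7 to 116 in the controls of E6.0 and late E6.0. Each stage had at most 1 KO library, and these 3 KO libraries come from different embryos. Cldn4, a claudin, had 1.61 and 1.34 CPM in KO cells at E6.5 and E7.0, and 20.1 at late E7.5. Its control values were 0 to 1.99 CPM at E6.0 and late E6.0, 11.7 at E6.5, 3.2 at late E6.5, 24.7 at E7.0, 35.4 at early E7.5 and 58.0 to 96.0 in late libraries.

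**Figure D3:**
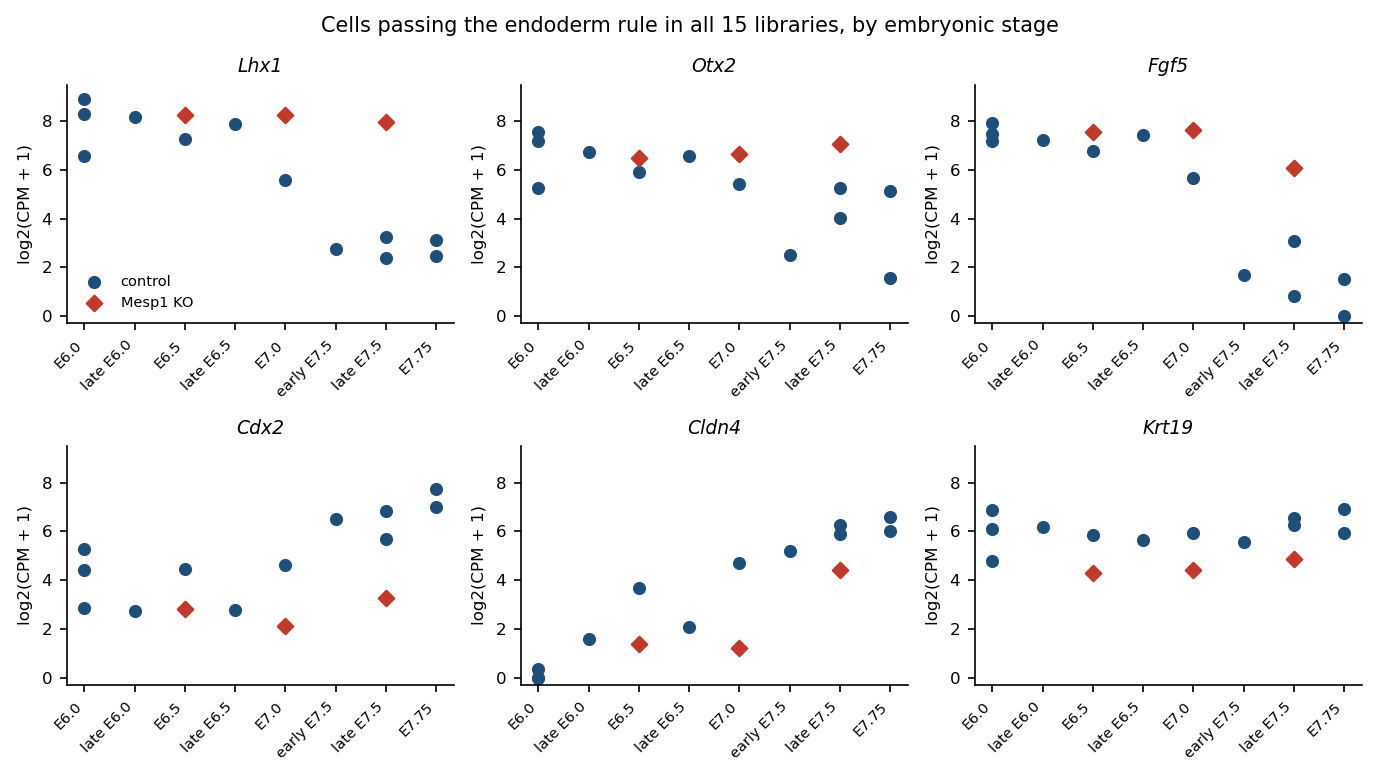
Levels of 6 genes in cells passing the endoderm rule in all 15 libraries (y axis, log2 of CPM plus 1) against embryonic stage (x axis, in order). Circles are control and diamonds KO libraries. Control Lhx1 is 237 CPM at late E6.5 and 5.79 at early E7.5, while the late KO library lies at 248 CPM.

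Epithelial and adhesion genes lay on both sides of the controls in the late KO. Of 17 tested, 8 were below and 4 above all controls, with a median log2 difference of -0.38. Krt19 (chr11:100140810-100148665, minus strand) had 27.9, 75.8, 91.7, 121 and 60.5 CPM, with the KO below every control. Cldn4 had 20.1, 58.0, 75.2, 96.0 and 64.1 CPM, with a log2 difference of -1.83 ± 0.38 (SE, adjusted p = 0.359 by edgeR and 0.0495 by DESeq2). Cdh2, N-cadherin, had 81.5 CPM against 13.2 to 22.7, with a log2 difference of 2.33 ± 0.33 (SE, adjusted p = 0.321 by edgeR and 0.0046 by DESeq2). Cdh1, E-cadherin, lay inside the control range at 77.8 CPM against 36.5 to 81.8, as did Epcam and Krt18.

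Hedgehog ligands were scarce in KO endoderm. Ihh, made by embryonic gut and visceral endoderm, had 1.37 CPM from 3 UMIs against 13.4 to 38.5, with a log2 difference of -4.19 ± 0.84 (SE, adjusted p = 0.357 by edgeR and 0.0236 by DESeq2). Shh had 0 UMIs, which allows 1.37 CPM, against 2.04, 5.71, 25.0 and 8.90 CPM. Of 13 Hedgehog genes tested 6 were below and 0 above all controls, with a median log2 difference of -0.19. The receptor Ptch1 and the signal transducer Smo lay inside the control range, at 4.58 CPM against 4.09 to 9.60 and 38.9 against 28.8 to 44.8.

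Of 11 retinoic acid genes tested, 4 were below and 1, Cyp26a1, above all controls (median log2 difference -1.18). Aldh1a2, the enzyme that makes retinoic acid, had 0 UMIs in KO endoderm and 7.40 to 33.2 CPM in controls. Its level in the other cells was 0.491 CPM in the KO and 61.2 to 176 CPM in controls, the same order as in endoderm. Of 16 hypoxia and glycolysis genes 8 were above and 2 below all controls (median 0.48), among them Ndufa4l2 with 29.8 CPM against 1.73 to 3.91. Its level in the other KO cells was 87.0 CPM. Of 17 proliferation genes 2 were above and 3 below (median -0.13), and Mki67 had 117 CPM against 109 to 139. Ccnd1, cyclin D1, was below all controls with 53.6 CPM against 114 to 280.

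Visceral endoderm transcripts varied strongly among endoderm cells. The share of a cell's UMIs from 9 visceral genes (Ttr, Apoa1, Apoa4, Apob, Apom, Afp, Rbp4, Amn and Cubn) had a median of 0 in the KO and in E7.75 control replicate 1 and of 0.0120%, 0.0244% and 0.00861% in the other controls. Cells with at least 0.5% made up 45 of 700 in the KO (6.43%) and 26.1%, 20.2%, 3.51% and 13.98% of the controls. The KO was 9.52 points below the control mean (exact permutation test over libraries, two-sided, p = 0.6, where 5 libraries allow no p under 0.2), inside the control range. Thinned to 2000 UMIs it was 6.02% against 8.91%, 2.83%, 0% and 4.55%, so the sign turned (difference 1.95 points, exact permutation p = 0.8). The limit of 0.5% cuts a range and does not define a cell type: 7, 5, 28, 0 and 18 cells lay between 0.4% and 0.6%.

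**Figure D4:**
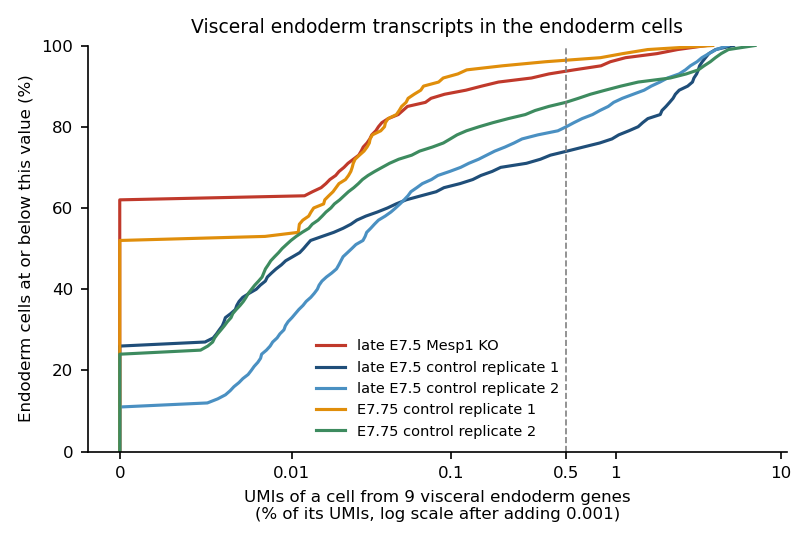
Percent of endoderm cells (y axis) at or below a given share of UMIs from 9 visceral endoderm genes (x axis, percent of the cell's UMIs, log scale after adding 0.001), with 1 line per late library. The dashed line marks 0.5%. In the shallow libraries 62.7% of KO cells and 52.6% of cells in E7.75 control replicate 1 held no such UMI, and the KO line crosses 0.5% with 6.43% of its cells above.

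Of 16 visceral genes tested, 2 were below all controls and 0 above, with a median log2 difference of -1.50. Ttr had 975, 2188, 1638, 847 and 1672 CPM, and E7.75 control replicate 1 was as low as the KO. Afp, alpha-fetoprotein, had 32.1, 306, 175, 23.0 and 153 CPM. In the other KO cells Ttr stood at 2172 CPM, against 659 to 966 in the other cells of controls. Of 10 parietal endoderm and basement membrane genes 7 were below and 0 above all controls (median -0.88), with Col4a1 at 117 CPM against 130 to 271 and Lama1 at 7.33 against 15.5 to 51.2.

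Marker lists of other cell types were then summed over the endoderm cells. Blood genes summed to 385 CPM in KO endoderm and 0 to 1314 CPM in controls, with 2 of 7 at 0 in the KO. In the other cells they summed to 11300 CPM in the KO and 137 to 6849 in controls. Endothelial genes summed to 22.9 CPM in the KO and 33.4 to 137 in controls, with Cldn5 and Emcn at 0 in the KO. Paraxial mesoderm genes summed to 6.87 CPM against 27.9 to 65.6, and cardiac and lateral mesoderm genes to 140 CPM against 40.2 to 129, where Myl7 alone had 83.3 CPM and Nkx2-5 was at 0. Neural and surface ectoderm genes summed to 29.3 CPM against 21.1 to 39.2 and extra-embryonic ectoderm genes to 91.1 against 71.0 to 289, of which Eomes was 70.04. Their part in the comparison was not tested.

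Differences seen in endoderm can be shared by the whole embryo, so the KO difference in endoderm was compared with that in the other retained cells of the same libraries, with the library as a block. Of 17393 genes tested, 132 passed an adjusted p of 0.05 with edgeR (0.759%). The signed log2 difference, KO minus control, was higher in endoderm than elsewhere for 25 (0.144%) and lower for 107 (0.615%). Lower refers to sign and so includes a stronger fall in endoderm. DESeq2 called 276 (1.59%), 94 higher (0.54%) and 182 lower (1.05%), so the higher share was 34.1% in place of 18.9%. The KO difference lay above all 4 controls for 28.7% and below all 4 for 25.9% of tested genes, and the median was -0.16. Leaving out late E7.5 control replicate 1 gave 863 calls, late E7.5 control replicate 2 gave 418 and E7.75 control replicate 2 gave 212. Against ectoderm-gated cells in place of all other cells edgeR called 0 genes, with 1332 at an unadjusted p under 0.05. With an endoderm term for each experiment it called 31.

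The other KO cells held more endoderm transcripts than those of controls, with Spink1, a trypsin inhibitor, at 1886 CPM against 330 to 568 and Krt18 at 747 against 377 to 475. In this comparison 9 of 12 anterior genes lay above all controls and 0 below (median 1.35), 9 of 19 Nodal and mesendoderm genes above and 2 below (median 0.49), and 2 of 12 posterior genes above and 3 below (median -0.55). Further, 12 of 19 endoderm identity genes, 13 of 17 epithelial genes and 9 of 16 visceral genes lay below. The part of the endoderm transcripts in other KO cells in these counts was not tested.

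Lhx1 and Frzb were 2 of the 25 higher genes. Lhx1 in the other cells had 101.2 CPM in the KO and 8.59 to 13.7 in controls, so it was high outside endoderm as well. The difference of differences was 2.01 ± 0.29 (log2, SE, edgeR adjusted p = 0.0213). It was past the threshold under 8 of 16 alternatives, with a range of 1.27 to 2.82 and an adjusted p up to 0.951 by edgeR, and lost it when E7.75 control replicate 1 was left out (2.01, adjusted p = 0.118). Frzb in the other cells had 31.7 CPM in the KO and 32.0 to 39.8 in controls, and its higher level was thus seen in endoderm and not in the remainder (1.56 ± 0.22, edgeR adjusted p = 0.0119). This call stood under 11 of 16 alternatives.

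The other higher genes named by size were Zfhx4 (3.61), Irs4 (3.14), Calb2 (3.09), Ror1 (2.60), Ina (2.43), Rbm24 (2.22), 4933436C20Rik (2.09), Jag1 (2.02) and Dusp4 (1.72), each a log2 difference of differences past the edgeR threshold. Ina, a neuronal intermediate filament, had 47.2 CPM in KO endoderm and 0 to 11.9 in control endoderm. Ror1, a Wnt receptor kinase, had 16.02 CPM against 1.45 to 5.26. Dusp4, a phosphatase of MAP kinases induced by FGF signalling, had 67.8 CPM against 26.003 to 37.1, and 21.5 against 26.1 to 45.3 in the other cells. Jag1, a Notch ligand, had 18.3 against 8.08 to 12.2 CPM. Zfhx4, Irs4 and Calb2 had only 8, 17 and 14 UMIs in KO endoderm. Their calls stood under 7, 9 and 7 of 15 alternatives. Those of the other genes named here stood under 8 (4933436C20Rik) to 14 (Ina) of 16.

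Krt19, Fga and Sparc were the list genes among the 107 lower ones. Krt19 in the other cells had 40.2 CPM in the KO and 18.1 to 29.7 in controls, the opposite order to that in endoderm (difference of differences -2.47 ± 0.29, edgeR adjusted p = 0.00776). This call stood under 14 of 16 alternatives. It did not pass with late E7.5 controls alone (-2.45, adjusted p = 0.108) or against ectoderm-gated cells (-1.67, adjusted p = 0.870). Sparc, a matrix glycoprotein, had 331 CPM against 395 to 593 in endoderm (-0.88 ± 0.16, edgeR adjusted p = 0.0223), and Fga, a fibrinogen chain, 2.29 against 5.76 to 13.0 (-3.002 ± 0.60, edgeR adjusted p = 0.0441). In the other cells Sparc had 255 CPM in the KO and 181 to 245 in controls. Sparc was past the threshold under 9 of 16 alternatives and Fga under 7. The Fga levels rest on 5 UMIs in the KO and 3 in E7.75 control replicate 1.

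**Figure D5:**
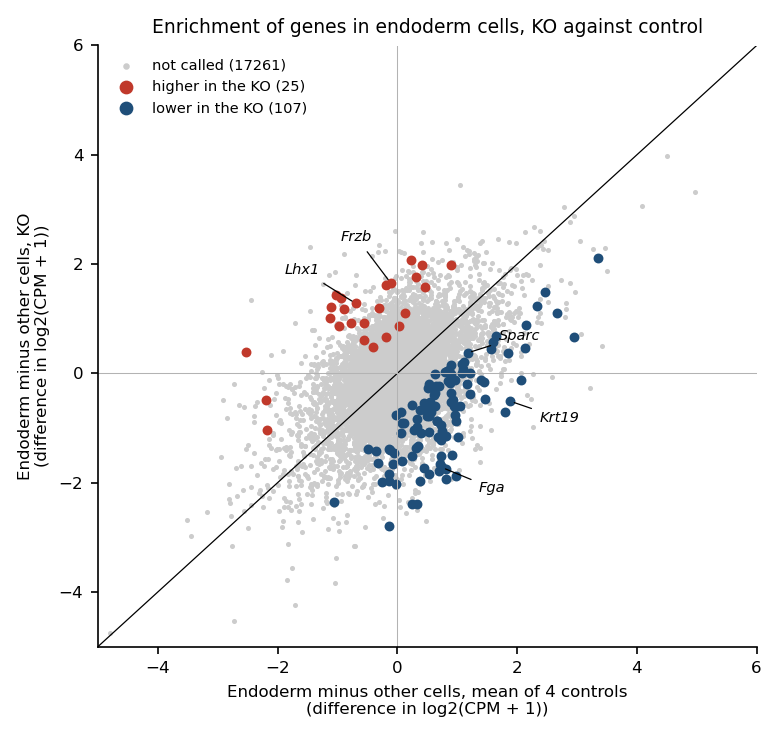
Difference between endoderm and other cells in log2 of CPM plus 1 for 17393 genes, mean of 4 controls (x axis) against the KO (y axis). Coloured points are the 132 genes past an edgeR adjusted p of 0.05, 25 higher and 107 lower in the KO, and the line marks equality. Lhx1 and Frzb lie above the line and Krt19 below it.

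Visceral transcripts were then set beside these calls. Among the 107 lower genes 62 (57.9%) were at least 2-fold higher in control endoderm cells with at least 0.5% visceral UMIs than in the remaining control endoderm cells, against 7.31% of all genes tested and 0 of the 25 higher genes. Such visceral-high cells are part of the control endoderm on which the calls rest, so these shares are a description. The part of visceral-high cells in the calls was not tested. With those cells left out of every library the comparison called 51 genes, 41 of them among the 132. Krt19 (-2.60, adjusted p = 0.00327) and Lhx1 (2.25, adjusted p = 0.0033) were past the edgeR threshold there and Frzb was not (1.38, adjusted p = 0.0642).

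The lower genes named by size were mostly sparse in the KO. Rhbdf1 had 0 UMIs in KO endoderm and 8.70 to 13.1 CPM in controls. Thnsl2, Cryab and Optn had 1 UMI each. 2010003K15Rik, Cd82, 4933402E13Rik, S100a16 and Habp2 had 3 to 7 UMIs. S100a16, a calcium-binding protein, had 1.37 CPM against 9.60 to 22.6, and Cryab, a small heat shock protein, 0.458 against 3.80 to 23.0. Kcnk16, a potassium channel subunit, lay inside the control range in endoderm, with 5.49 CPM against 4.97 to 9.80, and had 2.02 CPM in the other KO cells against 0.308 to 0.524 in those of controls.

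The 2 reporters were not used by the rule. An eGFP UMI was found in 3.86% of KO endoderm cells and 4.32%, 12.1%, 3.51% and 8.71% of control ones. Ectoderm-gated cells of the same libraries, which should lack the enhancer's activity, held 1.78%, 4.08%, 6.23%, 0.858% and 7.83%, at a median of 4630 UMIs per cell in the KO and 5166 to 26160 in controls. The KO lay within the control range (difference -3.30 points, exact permutation p = 0.6), and thinned to 2000 UMIs the difference was 0.938 points (exact permutation p = 0.8). Late E7.5 control replicate 1 and E7.75 control replicate 2 were near their ectoderm background. For Ai14 the shares were 11.9% in the KO and 17.0%, 2.63% and 13.1% in the 3 controls with the reporter (difference 0.943 points, exact permutation p = 1, where 4 libraries allow no p under 0.25). Without E7.75 control replicate 1 this difference was -3.20 points. Ectoderm-gated cells gave 2.17% in the KO and 7.45%, 1.72% and 7.62% in these controls. The control without an Ai14 allele still gave 7.36% in endoderm and 4.44% in ectoderm-gated cells. With 1 KO library these tests could not pass 0.05 at any difference.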

How the data were processed

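UMI counts per gene and cell were deposited by the authors without normalization. They were made with Cell Ranger 3.0.2 on mm10, per the submitters' processing notes, with the eGFP and Ai14 sequences added. Groups came from the sample labels. Barcodes were retained at 200 to 7000 genes, fewer than 50000 UMIs and a mitochondrial share under 10%. Counts of endoderm cells and of all other cells were summed per library, reduced to genes passing filterByExpr, TMM-normalized, and compared in edgeR 4.0.16 (quasi-likelihood, two-sided, Benjamini-Hochberg, threshold 0.05) in R 4.3.3, because libraries and not cells are the replicates. The single KO library is assumed to vary like the controls. Per the paper, stage-matched littermates of both genotypes were pooled for sequencing, but it does not name the pairs. Whether the controls came from separate litters is not given in the sources used here, so p-values measure the spread between these libraries. Each SE was derived from the edgeR test, as the absolute log2 difference over the square root of its F statistic. Visceral-high and reporter shares were compared by exact permutation of libraries with 95% intervals by Clopper-Pearson, and 0 counts were taken to allow up to 3. Intervals and such limits cover counting error only. Doublets were scored against simulated pairs, with the number marked rising with the barcodes of a library. On simulated counts (dispersion 0.05) edgeR recovered 96 of 102 4-fold and 98 of 98 8-fold changes among 13736 genes in endoderm, with 11 false calls, and 55 of 102 and 91 of 98 among 17105 genes for the difference from other cells, with 10. That dispersion was assumed, so these rates check the code and do not give the power of the real comparison. DESeq2 1.42.0 was an alternative, beside other depths, filters, rules, scalings and control sets and each control left out. Gene positions are from GENCODE on GRCm38, matched by gene ID.

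The rule, the gene lists and the genes named were chosen with earlier results of these data known. Genes named are those of the lists, up to 10 per direction with the largest difference past the threshold and outside the control range, and 20 leading genes at 50 CPM or more. Apela was left out because its gene ID carries another symbol in the files. A gene of the posterior list is not reported here by name.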

Additional observations from a re-analysis of the deposited data

Results flagged for a closer look

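Among 39 values tested for a control far from the other 3, 1 stood out, where chance alone gives about 1 in 20. Tdgf1 in endoderm was 5.65 CPM in late E7.5 control replicate 1, while the other controls had 0 or 0.0403 CPM.

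A difference between endoderm and the other cells in the KO effect passed the edgeR threshold for 24 genes named above. On the log2 scale the signed KO minus control difference was higher in endoderm for Zfhx4 by 3.61, Irs4 by 3.14, Calb2 by 3.09, Ror1 by 2.60, Ina by 2.43, Rbm24 by 2.22, 4933436C20Rik by 2.09, Jag1 by 2.02, Lhx1 by 2.01, Dusp4 by 1.72 and Frzb by 1.56.

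The signed difference was lower in endoderm for Rhbdf1 (-11.97, with 0 UMIs in KO endoderm, so that the size is no estimate), Thnsl2 (-4.50), Cryab (-4.34), Optn (-4.06), 2010003K15Rik (-3.43), Cd82 (-3.33), 4933402E13Rik (-3.32), Kcnk16 (-3.16), S100a16 (-3.11), Habp2 (-3.02), Fga (-3.002), Krt19 (-2.47) and Sparc (-0.88). Thnsl2, Cryab and Optn rest on 1 UMI each in KO endoderm, and their differences reached -12.6, -11.9 and -8.8 under alternatives. Among these 24 genes the adjusted p under DESeq2 was above 0.05 for Rhbdf1 (0.0911), Thnsl2 (0.101), Cryab (0.101) and Optn (0.153). It was not given for Zfhx4, Irs4 and Calb2.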

How the results depend on the processing

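No paired analysis was possible because the KO library has replicate number 1 alone and shares no second number with the controls, so a block on replicate numbers could not be fitted. Within an experiment a comparison was made: a fit with experiment as a term, also chosen after seeing the data, has 1 residual degree of freedom and sets the KO against E7.75 control replicate 1. It called 0 genes in endoderm and 31 in place of 132 for the difference from other cells, where Frzb, Krt19 and Ina stayed past the threshold among the 24 genes named. The endoderm share difference of 1.04 points turned to -0.535 with 3 of 6 partner genes required and -0.956 with Cer1 left out (like library totals in place of TMM, chosen after seeing the data), and ranged from -0.179 to 1.88 with each control left out. The visceral-high difference turned to 1.95 when thinned and ranged from -13.7 to -6.12 with each control left out. For eGFP it turned to 0.938 when thinned (leave-one-out range -4.52 to -1.65), and for Ai14 to -5.14 with late E7.5 controls only and -4.35 at 2 or more reporter UMIs (leave-one-out range -3.20 to 3.98).

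In endoderm, edgeR called 0 genes but DESeq2 47, no filter on low counts 2, thinned cells 10, visceral-low cells 1 and 3 of 6 partner genes 1, with 0 to 407 when each control was left out. For the difference from other cells, 132 calls became 276 with DESeq2, 11 with late E7.5 controls only, 28 thinned, 51 in visceral-low cells, 19 with 3 of 6 partner genes, 40 without Cer1 and 0 against ectoderm-gated cells, with 119 to 863 when each control was left out. The cause of these shifts was not tested. Of 619 alternative values for 39 results on single genes, 435 kept direction and side of the threshold, 162 lost the threshold, 21 gained it and 1 turned, Kcnk16 to 2.83 against ectoderm-gated cells. With 1 KO library of 2995239 endoderm UMIs, levels under 1.37 CPM in the KO, and under 5.76 CPM in E7.75 control replicate 1, cannot be told from 0.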
